A study of Mus musculus with 6 samples.

Results

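Chromosomal DNA replication was followed through 42 genes of the licensing, helicase, polymerase, clamp and nucleotide synthesis machinery in mouse chondrocytes. The genes were listed by name for their role, with earlier results of these data known. They were looked up by symbol among the 22032 genes of the expression matrix. All 42 were found, and all 42 had a mean of at least 1 TPM and entered the test. TPM (transcripts per 1000000) is a gene's share of all transcripts after correction for transcript length, so levels in TPM can be set against each other between genes.

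The cells came from mouse knee cartilage and were isolated by flow cytometry as LIN-ALP-BMPR1B+ cells, where BMPR1B is a bone morphogenetic protein receptor and ALP is alkaline phosphatase. The 3 embryonic samples were from E16.5 embryos according to the methods, although the deposited labels give the stage as 16.5 weeks, and the 3 adult samples were from animals 2 months old. The adult cells were taken from male B6 mice and gated as CD31-, CD45- and Ter119- cells, which is meant to remove endothelial, leukocyte and erythroid cells. The sex and strain of the embryos, and how many animals went into a sample, are not given, so the p-values measure the spread between the 3 samples of each stage. No treatment and no mutant allele is named for either stage.

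Before S phase, the origin recognition complex, CDC6 and CDT1 load the ring-shaped MCM2-7 helicase onto DNA, and geminin holds CDT1 back once replication has begun. CDC45 and the GINS complex then turn MCM2-7 into the active CMG helicase, RPA coats the single strands, and polymerases alpha, delta and epsilon copy them with the PCNA clamp and its RFC loader. Ribonucleotide reductase, thymidylate synthase and thymidine kinase supply deoxynucleotides, and chondrocytes divide in the growing skeleton but seldom in adult articular cartilage.

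All 10 chondrocyte markers were found in each sample, but 6 fell (60%) and 2 rose (20%), *Sox9* and *Comp*, in the adult samples. Marker counts are by limma at an adjusted p under 0.05, and over all genes tested 21.4% fell and 23.9% rose. *Comp* was at 553 to 606 TPM in the embryonic and 1770 to 2660 TPM in the adult samples. *Col2a1* (type II collagen) was at 14200 to 15300 TPM in the embryonic and 3170 to 7080 TPM in the adult samples, and *Sox9* was at 392 to 465 and 589 to 901 TPM. *Matn3* (matrilin 3) was at 181 to 234 and 1.11 to 3.65 TPM, *Col9a1* at 1910 to 1950 and 27.2 to 64.3 TPM, *Col11a2* at 2660 to 2840 and 401 to 483 TPM, and *Cnmd* at 1680 to 1970 and 239 to 312 TPM. Sequencing depth is not carried by TPM, and counting error was not worked out for single values. The summed level of 7 tendon and fibroblast markers was 10130 to 11770 TPM in the embryonic and 595.4 to 1331 TPM in the adult samples, and 5 of the 7 fell. Markers of hypertrophic chondrocytes summed to 591 to 813 TPM before birth and 3334 to 5707 TPM in adult samples, and those of osteoblasts to 58.7 to 87.0 TPM and 301 to 496.9 TPM. Most of these adult sums came from *Spp1* (2370 to 4380 TPM) and *Ibsp* (235 to 316 TPM). Of 5 hypertrophic markers 4 could be tested, of which 3 rose, *Col10a1*, *Mmp13* and *Spp1*, and *Pth1r* fell. *Col10a1* (type X collagen) was at 11.4 to 72.4 TPM in the embryonic and 814 to 1100 TPM in the adult samples. *Mmp13* was at 4.9 to 14.4 and 143 to 226 TPM. *Ihh* was at 0 in each adult sample. Of 7 osteoblast markers 4 rose and *Dmp1* fell. Erythroid markers, 9 in number, summed to 257.1, 7.77 and 8.48 TPM in embryonic samples 1, 2 and 3 and 43.55, 12.37 and 47.45 TPM in adult samples 1, 2 and 3. Only 4 of them could be tested, and all 4 passed in neither direction. The summed level of 12 leukocyte markers was 6.19, 0.113 and 1.76 TPM in embryonic samples 1, 2 and 3 but 172, 3.35 and 99.6 TPM in adult samples 1, 2 and 3. Of these markers 8 could be tested and 2 rose (25%, near the share of all genes tested). The 2 were *S100a8* and *S100a9*, both at 0 in adult sample 2 and the embryonic samples. *Ptprc* (CD45) was at 2.29 and 1.03 TPM in adult samples 1 and 3 and at 0 in adult sample 2. The part of such cells in the replication genes was not tested, and results are also given with adult sample 2 as the lone adult sample.

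Most replication genes were lower in adult chondrocytes. With limma and an adjusted p under 0.05, 24 of the 42 genes fell and 2 rose, *Gins3* and *Rpa1*, whereas 16 passed in neither direction. Over all 13125 genes tested, 21.4% fell and 23.9% rose, 45.3% in either direction. The median log2 fold change, adult minus embryonic on the log2(TPM + 1) scale, was -1.33 over the replication genes and 0.16 over all genes tested. The adult range lay wholly below the embryonic range for 25 of the 42 genes and wholly above it for 2, against 25.9% and 30.7% of all genes. In bulk samples, fewer cells in S phase and less RNA per cell cannot be told apart.

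**Figure D1:**
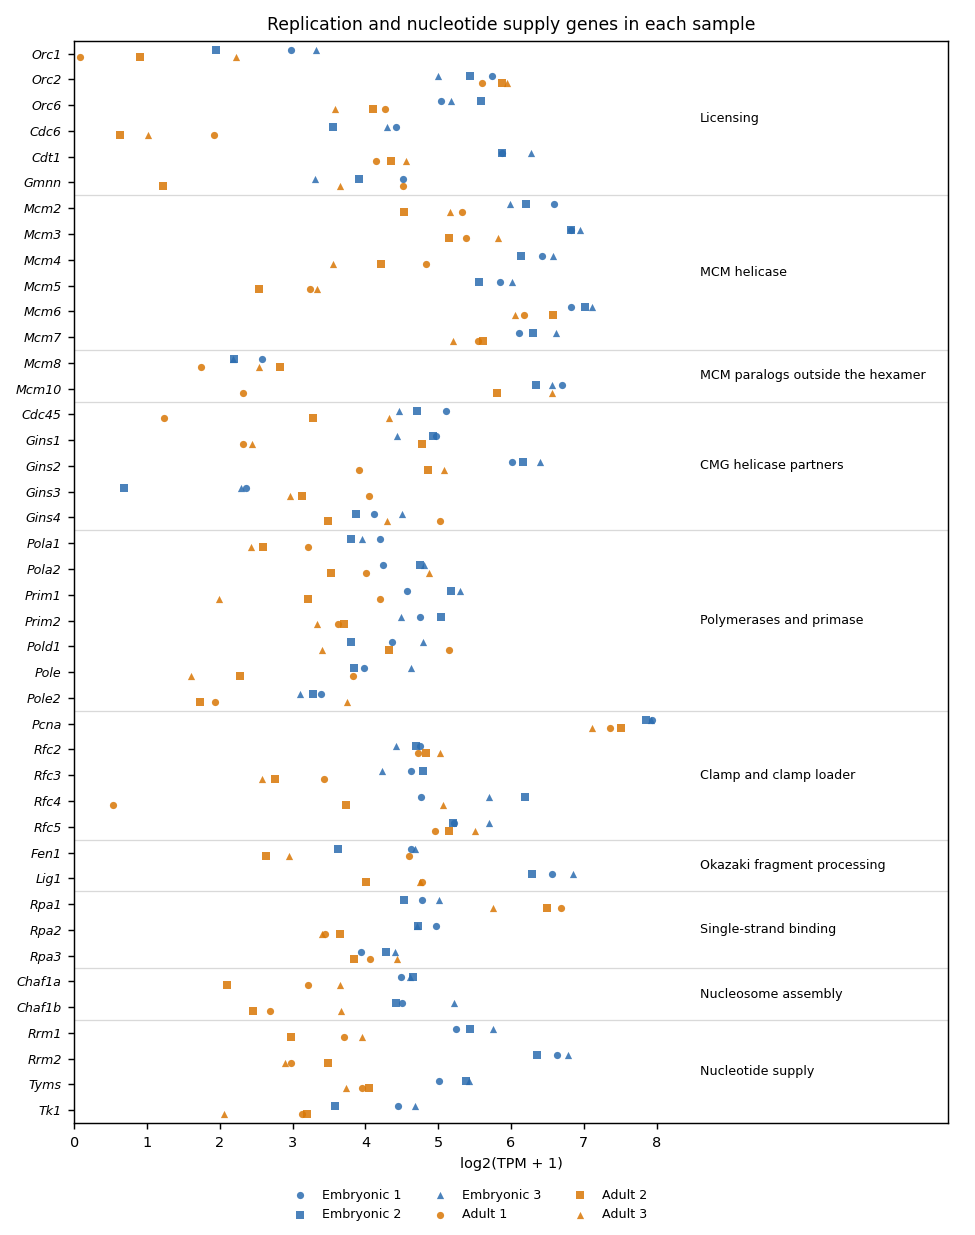
Level of each of the 42 genes on the log2(TPM + 1) axis, with blue symbols for the 3 embryonic and orange symbols for the 3 adult samples, grouped by role. The blue symbols stand to the right of the orange ones for most genes, *Rpa1* and *Gins3* show the opposite order, and for *Rfc4*, *Mcm10*, *Gmnn* and *Orc1* the adult symbols are spread widely.

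The sample medians of the 42 genes were 4.77, 4.86 and 4.90 on the log2(TPM + 1) scale in embryonic samples 1, 2 and 3 and 3.98, 3.68 and 3.70 in adult samples 1, 2 and 3. Their levels added up to 1880, 1810 and 2050 TPM in the embryonic samples and to 975.2, 965 and 997.4 TPM in the adult samples. The stages did not overlap in either measure. Adult samples 1, 3 and 2 had this order both in the median and in the summed leukocyte markers, whose part was not tested. With adult sample 2 as the lone adult sample, the median log2 fold change was -1.36 over the replication genes and 0.13 over all genes tested. Any p-value from that comparison assumes that adult sample 2 varies like the others. With all 6 samples, the groups in which each gene fell were the MCM2-7 helicase (6 of 6), chromatin assembly factor 1 (2 of 2) and nucleotide supply (4 of 4).

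**Figure D2:**
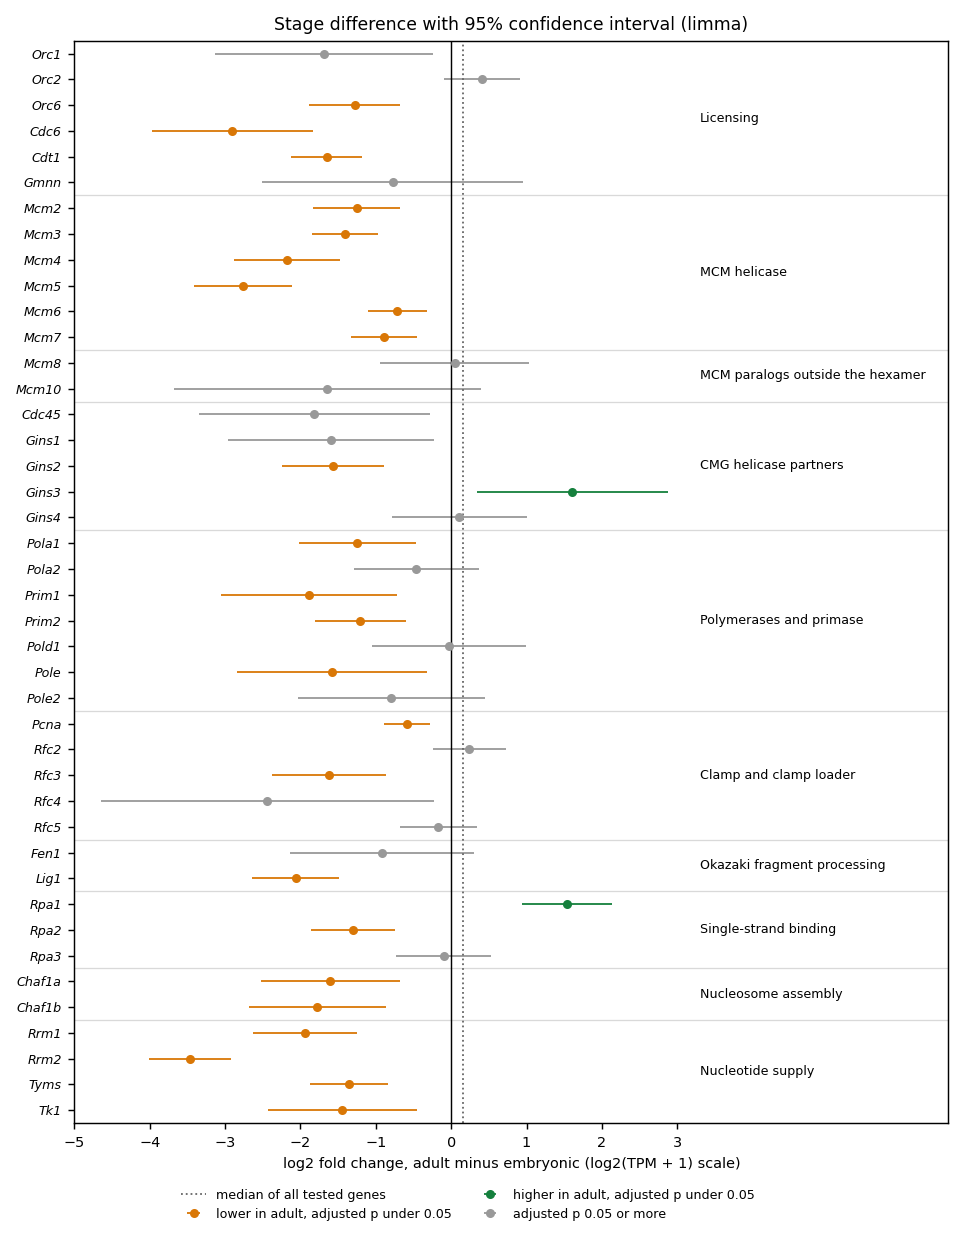
Log2 fold change of each gene, adult minus embryonic, with its confidence interval from limma, coloured by whether the gene fell (orange), rose (green) or passed in neither direction (grey). The dotted line marks the median of all genes tested at 0.16, and the lowest point is *Rrm2* at -3.47.

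E2F transcription factors are known to bind the promoters of many S phase genes at sites close to the letters TTTGGCGC, TTTCCCGC, TTTCGCGC or TTTGCCGC. These letters were searched on both strands of the 250 bases before the gene start in RefSeq promoters of GRCm38.p6, a table that holds 34 of the 42 genes (not *Gins1*, *Gins2*, *Gins4*, *Rfc2*, *Pole*, *Mcm4*, *Prim2* and *Gmnn*). They were found in 8 of the 34 (23.5%), against 2.16% of all 27025 genes with a promoter and 3.87% of the 10292 tested genes with one. Of these 8 genes, *Cdc6*, *Mcm5*, *Mcm6*, *Mcm7*, *Pola1* and *Rfc3* fell, *Gins3* rose, and *Orc1* passed in neither direction. With the 50 bases after the gene start included, 14 of the 34 (41.2%) held the letters, against 2.6% of all genes and 4.61% of tested genes. In this longer window they were in 9 of the 20 genes that fell (45%) and 4 of the 12 that passed in neither direction (33.3%), against 6 (30%) and 1 (8.33%) in the shorter one. The letters CCAAT, also on both strands, were in 22 of the 34 promoters (64.7%) and in 40.5% of those of tested genes, and the GC box GGGCGG was in 67.6% and 64.4%.

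The following 4 promoters, written 5′ to 3′ along the gene, are of the MCM2-7 genes with the largest and the smallest decrease, of the gene with the largest decrease of all 42, and of *Rpa1*, which rose. Capitals mark the E2F-type letters, which in *Mcm5* and in the first match of *Mcm6* overlap on opposite strands.
*Mcm5*, chr8:75109259-75109508, plus strand: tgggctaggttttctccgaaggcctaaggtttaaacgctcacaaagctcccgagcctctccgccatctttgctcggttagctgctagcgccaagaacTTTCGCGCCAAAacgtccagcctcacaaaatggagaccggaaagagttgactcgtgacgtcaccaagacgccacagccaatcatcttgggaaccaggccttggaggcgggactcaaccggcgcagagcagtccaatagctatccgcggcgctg
*Mcm6*, chr1:128359706-128359955, minus strand: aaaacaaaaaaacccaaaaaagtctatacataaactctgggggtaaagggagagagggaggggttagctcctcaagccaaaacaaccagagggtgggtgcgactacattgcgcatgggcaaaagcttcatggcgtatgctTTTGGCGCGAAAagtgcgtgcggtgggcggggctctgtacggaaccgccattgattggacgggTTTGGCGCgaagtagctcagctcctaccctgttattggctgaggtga
*Rrm2*, chr12:24708004-24708253, plus strand: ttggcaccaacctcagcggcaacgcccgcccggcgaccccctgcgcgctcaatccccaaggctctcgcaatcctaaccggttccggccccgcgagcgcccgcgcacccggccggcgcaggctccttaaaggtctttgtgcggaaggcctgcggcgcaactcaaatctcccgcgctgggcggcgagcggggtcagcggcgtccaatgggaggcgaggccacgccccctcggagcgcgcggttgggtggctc
*Rpa1*, chr11:75348384-75348633, minus strand: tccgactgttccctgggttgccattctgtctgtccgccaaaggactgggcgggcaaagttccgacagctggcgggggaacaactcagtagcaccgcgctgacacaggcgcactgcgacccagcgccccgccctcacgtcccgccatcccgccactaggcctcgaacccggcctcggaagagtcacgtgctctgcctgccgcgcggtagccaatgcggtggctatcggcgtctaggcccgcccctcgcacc
The *Mcm5* match starts at position -153 from the gene start, and those of *Mcm6* start at -110 and -47. Gene starts here are those of the RefSeq promoters and can differ from the gene positions given elsewhere, which are from GENCODE. The *Rrm2* window, for example, runs past the GENCODE start at 24708241. The *Rrm2* and *Rpa1* windows hold none of the searched letters, which says only that these letters are not there. A match is a stretch of sequence, and binding was not measured.

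Among the licensing genes, *Cdc6*, *Cdt1* and *Orc6* fell, and *Orc1*, *Orc2* and *Gmnn* passed in neither direction. *Cdc6*, the ATPase that helps to load the helicase, was at 20.5, 10.7 and 18.6 TPM in the embryonic and 2.77, 0.548 and 1.02 TPM in the adult samples. All 3 adult values lay below the embryonic ones, with a log2 fold change of -2.90 (SE 0.47, adjusted p = 0.00129). *Cdt1*, its partner in loading, was at 57.5, 57.5 and 76.3 TPM in the embryonic and 16.7, 19.4 and 22.6 TPM in the adult samples. The log2 fold change of *Cdt1* was -1.65 (SE 0.21, adjusted p = 0.00035), and the values within a stage were close together.

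*Orc6*, the smallest subunit of the origin recognition complex, fell by 1.28 on the log2 scale (SE 0.27, adjusted p = 0.00477), from 31.9, 46.9 and 35.1 TPM to 18.3, 16.2 and 11 TPM. Its call was lost only with adult sample 2 alone. *Orc2*, a subunit of the same complex, was at 52.5, 42.5 and 30.9 TPM in the embryonic and 47.4, 57.5 and 60.4 TPM in the adult samples. The *Orc2* ranges overlapped (log2 fold change 0.41, 95% confidence interval -0.10 to 0.91, adjusted p = 0.164), and its adult mean was the higher one. Part of the *Orc2* exons (29.8%) overlaps *Nif3l1* on the opposite strand, and whether strand was used in counting is not stated. *Orc1*, the ATPase subunit, was at 6.88, 2.87 and 8.96 TPM in the embryonic and 0.0559, 0.86 and 3.65 TPM in the adult samples. Adult sample 3 reached into the embryonic range for *Orc1* (log2 fold change -1.69, adjusted p = 0.0584), and without it the log2 fold change was -2.26 with an adjusted p of 0.017 (0.017 to 0.177 over the alternatives).

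*Gmnn*, which encodes the CDT1 inhibitor geminin, was at 21.8, 14.0 and 8.89 TPM in the embryonic and 21.9, 1.32 and 11.6 TPM in the adult samples. Only adult sample 2 was below the embryonic range, and the log2 fold change was -0.78 (interval -2.50 to 0.95, adjusted p = 0.43), which turned to 0.18 without that sample. The ratio of *Cdt1* to *Gmnn* in TPM was 2.64, 4.12 and 8.58 in the embryonic and 0.76, 14.7 and 1.96 in the adult samples. The ratios overlapped (exact two-sided permutation test, p = 0.7), and the smallest p that 3 samples against 3 allow is 0.1. This ratio and the ratios of *Mcm6* to *Mcm5*, *Rpa1* to *Rpa2* and *Rrm2* to *Rrm1* were chosen after the values had been seen.

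The 6 subunits of the MCM2-7 ring, which the active helicase holds in equal number, fell by unequal amounts. *Mcm5* was at 56.6, 46.3 and 63.4 TPM in the embryonic and 8.45, 4.82 and 9.12 TPM in the adult samples, giving a log2 fold change of -2.77 (SE 0.29, adjusted p = 0.00012). *Mcm6* was at 112, 129 and 137 TPM in the embryonic and 71.2, 94.6 and 65.8 TPM in the adult samples, giving a log2 fold change of -0.71 (SE 0.17, adjusted p = 0.00961). In both genes the stages were apart, and the adult level of *Mcm6* stayed above the embryonic level of *Mcm5* in each sample. The adult values of *Mcm6* were nonetheless the ones closest to the embryonic range, and with adult sample 2 alone its log2 fold change was -0.41 (adjusted p = 0.122, with 0.00423 to 0.122 over the alternatives).

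*Mcm4* stood nearest to *Mcm5* in its decrease, with 85.1, 69.5 and 94.2 TPM in the embryonic and 27.6, 17.5 and 10.8 TPM in the adult samples (log2 fold change -2.17, SE 0.31, adjusted p = 0.00066). *Mcm3* was at 112, 112 and 123 TPM and then at 40.6, 34.5 and 55.8 TPM (log2 fold change -1.41, adjusted p = 0.00052). *Mcm2* was at 95.1, 72.8 and 62.4 TPM and then at 39.1, 22 and 34.9 TPM (log2 fold change -1.25, adjusted p = 0.00401). No adult sample of these 3 genes reached the embryonic range. *Mcm7* was at 67.9, 78.2 and 97.1 TPM and then at 45.6, 48.1 and 35.8 TPM (log2 fold change -0.89, adjusted p = 0.00592). The *Mcm7* stages were also apart, although 26% of its 50-base stretches are shared with the copy *Gm5487*, which has no row of its own, and with adult sample 2 alone the adjusted p was 0.0959 (0.0029 to 0.0959 over the alternatives).

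The levels of the 6 subunits added up to 529, 507 and 578 TPM in the embryonic samples and to 233, 222 and 212 TPM in the adult samples. The highest subunit, *Mcm6* in each sample, was 1.99, 2.78 and 2.2 times the lowest in the embryonic samples and 8.43, 19.6 and 7.21 times the lowest in the adult samples. The lowest subunit was *Mcm5* in each sample except embryonic sample 3, where it was *Mcm2*. The ratio of *Mcm6* to *Mcm5* was 1.99, 2.78 and 2.16 in the embryonic and 8.43, 19.6 and 7.21 in the adult samples, so the stages did not overlap. The exact two-sided permutation test on the log2 ratio gave p = 0.1, the smallest it can give with 3 samples against 3.

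**Figure D3:**
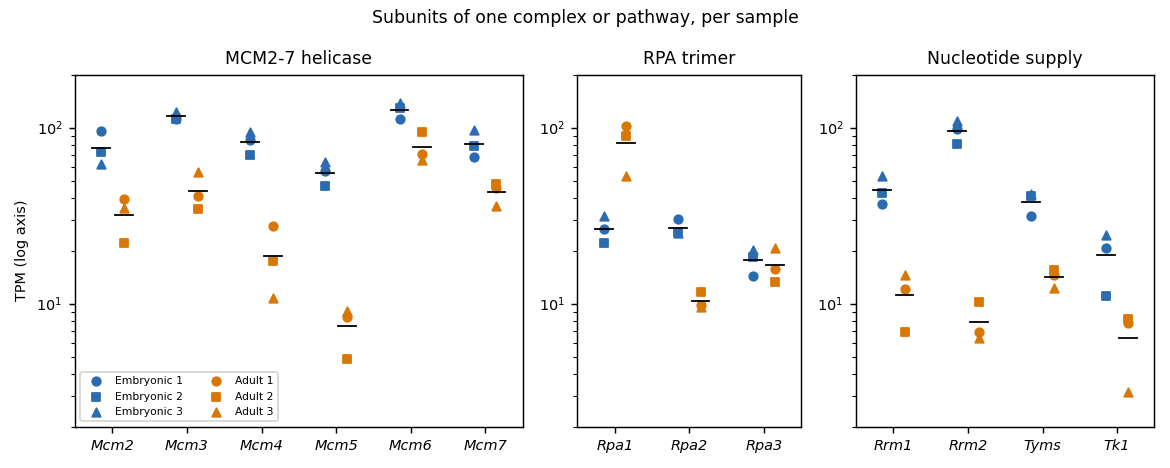
TPM on a log axis for the MCM2-7 subunits, the RPA subunits and the nucleotide supply genes, with blue symbols for embryonic and orange for adult samples and a bar at the mean TPM of each stage. The adult MCM2-7 levels run from 4.82 TPM (*Mcm5*) to 94.6 TPM (*Mcm6*), and *Rpa1* and *Rpa2* move in opposite directions.

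*Mcm8* and *Mcm10*, which are not part of the MCM2-7 ring, passed in neither direction. *Mcm10*, a factor needed to start the assembled helicase, was at 103, 80.1 and 94.0 TPM in the embryonic and 3.97, 55.2 and 93.4 TPM in the adult samples. The adult values ran from the embryonic level in sample 3 to far below it in sample 1 (log2 fold change -1.64, interval -3.68 to 0.40, adjusted p = 0.166). *Mcm8*, a helicase of recombination repair, was at 3.51 to 4.95 TPM in the embryonic and 2.33 to 6.07 TPM in the adult cells, with a log2 fold change of 0.05 that was -0.07 under median-of-ratios scaling.

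The partners that turn MCM2-7 into the CMG helicase were mixed. *Gins2*, a GINS subunit, was at 63.4, 70.8 and 83.3 TPM in the embryonic and 14.1, 28.1 and 32.7 TPM in the adult samples (log2 fold change -1.57, SE 0.30, adjusted p = 0.00299). All its adult samples were below the embryonic ones, but 67.3% of its exons overlap *Gse1* on the opposite strand, for which the log2 fold change was -0.13 (adjusted p = 0.618). *Gins3*, another subunit, was at 4.14, 0.604 and 3.90 TPM in the embryonic and 15.6, 7.74 and 6.83 TPM in the adult samples (log2 fold change 1.61, SE 0.56, adjusted p = 0.043). The adult values of *Gins3* were all higher, yet the call was lost whichever sample was left out, with adjusted p from 0.0545 to 0.138 and log2 fold changes from 1.06 to 1.90.

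*Gins1* was at 30.2, 29.4 and 20.7 TPM in the embryonic and 4, 26.4 and 4.42 TPM in the adult samples. Adult sample 2 stood at the embryonic level while the other two were below it (log2 fold change -1.60, adjusted p = 0.0579). Without adult sample 2 the log2 fold change of *Gins1* was -2.40 with an adjusted p of 0.0014, and with it as the lone adult sample 0.00, with 0.0014 to 1 over the alternatives. *Gins4* was at 16.3, 13.6 and 21.6 TPM in the embryonic and 31.5, 10.2 and 18.7 TPM in the adult cells, with a log2 fold change of 0.11 that was -0.03 under median-of-ratios scaling. *Cdc45* was at 33.5, 25.1 and 21.1 TPM in the embryonic and 1.34, 8.72 and 19.0 TPM in the adult samples. Its stages did not overlap, but the adult spread was wide (log2 fold change -1.82, SE 0.68, adjusted p = 0.055), and without adult sample 3 the log2 fold change was -2.50 with an adjusted p of 0.0143 (0.0143 to 0.163 over the alternatives).

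Of the 7 genes for polymerase and primase subunits, *Pola1*, *Prim1*, *Prim2* and *Pole* fell. *Prim2*, the large primase subunit, was at 25.9, 31.9 and 21.5 TPM in the embryonic and 11.3, 12 and 9.10 TPM in the adult samples (log2 fold change -1.21, SE 0.27, adjusted p = 0.00618). *Prim1*, the catalytic primase subunit, was at 22.7, 35.2 and 38.2 TPM and then at 17.4, 8.22 and 2.98 TPM (log2 fold change -1.88, SE 0.51, adjusted p = 0.0166). Both were lower in each adult sample, and *Prim1* was the more variable. The call of *Prim2* was lost only with adult sample 2 alone. The adjusted p of *Prim1* was 0.0679 without embryonic sample 2 and 0.0698 without embryonic sample 3, with 0.00581 to 0.0698 over the alternatives.

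*Pola1*, the catalytic subunit of polymerase alpha, was at 17.4, 12.9 and 14.5 TPM in the embryonic and 8.23, 5.02 and 4.37 TPM in the adult samples (log2 fold change -1.24, SE 0.34, adjusted p = 0.017). The stages were apart, but the adjusted p was 0.0733 without embryonic sample 1 and 0.0543 without embryonic sample 3 (0.00963 to 0.0733 over the alternatives). *Pole*, the catalytic subunit of the leading-strand polymerase epsilon, was at 14.8, 13.4 and 23.7 TPM and then at 13.2, 3.84 and 2.03 TPM (log2 fold change -1.58, SE 0.56, adjusted p = 0.0447). Adult sample 1 lay just under the embryonic range of *Pole*, and the adjusted p was 0.0886 to 0.155 without any 1 embryonic sample, 0.114 without adult sample 2 and 0.124 without adult sample 3 (0.00666 to 0.155 over the alternatives).

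*Pola2*, *Pold1* and *Pole2* overlapped between the stages. *Pold1*, the catalytic subunit of polymerase delta, was at 19.6, 13.0 and 26.7 TPM in the embryonic and 34.5, 19.0 and 9.56 TPM in the adult cells, with a log2 fold change of -0.03 (interval -1.05 to 0.99) that was 0.06 when the 20 highest genes were left out of the scaling. *Pola2*, the B subunit of polymerase alpha, had a log2 fold change of -0.46 (interval -1.29 to 0.37). *Pole2* was at 9.52, 8.73 and 7.57 TPM and then at 2.82, 2.30 and 12.4 TPM, so adult sample 3 was above and the other two below the embryonic range. Its log2 fold change was -0.79 (adjusted p = 0.263), and without adult sample 3 it was -1.43 with an adjusted p of 0.0191 (0.0191 to 0.576 over the alternatives).

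*Pcna*, which encodes the sliding clamp, was the most abundant of the 42 genes in each sample. It was at 245, 231 and 242 TPM in the embryonic and 163, 181 and 138 TPM in the adult samples. The decrease was the smallest among the 24 genes that fell but the embryonic samples were close together (log2 fold change -0.58, SE 0.14, adjusted p = 0.00788). Much of the *Pcna* transcript (31.8% of its 50-base stretches) is shared with *Pcna-ps2*, a copy with no row of its own. *Pcna* alone held 138 to 181 of the 965 to 997.4 TPM of all 42 genes in the adult samples.

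Of the clamp loader genes, *Rfc3* fell and *Rfc2*, *Rfc4* and *Rfc5* passed in neither direction. *Rfc3* was at 23.8, 26.6 and 17.7 TPM in the embryonic and 9.79, 5.78 and 5 TPM in the adult samples (log2 fold change -1.62, SE 0.34, adjusted p = 0.00451). *Rfc4* was at 26.2, 71.8 and 51.0 TPM in the embryonic and 0.451, 12.3 and 32.4 TPM in the adult samples. It had the widest adult spread of the 42 genes, 71.9 times from lowest to highest, and adult sample 3 lay inside the embryonic range (log2 fold change -2.44, SE 0.97, adjusted p = 0.0697). Without adult sample 3 the log2 fold change of *Rfc4* was -3.41 with an adjusted p of 0.0205 (0.0122 to 0.209 over the alternatives). *Rfc2* was at 25.8, 24.9 and 20.3 TPM and then at 25.3, 27.5 and 31.5 TPM (log2 fold change 0.24, interval -0.25 to 0.73), and *Rfc5* had a log2 fold change of -0.17 (interval -0.68 to 0.34).

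For the joining of Okazaki fragments, *Lig1* (DNA ligase 1) was at 93.5, 77.1 and 115 TPM in the embryonic and 26.3, 15.1 and 25.8 TPM in the adult samples. Each adult sample was far below the embryonic range, with a log2 fold change of -2.06 (SE 0.25, adjusted p = 0.0003). *Fen1*, the flap endonuclease, was at 23.7, 11.3 and 24.6 TPM and then at 23.3, 5.19 and 6.72 TPM. Adult sample 1 was at the embryonic level of *Fen1* (log2 fold change -0.92, adjusted p = 0.194), and without it the log2 fold change was -1.52 with an adjusted p of 0.0269 (0.0269 to 0.47 over the alternatives). Most of the *Fen1* exons (78.8%) overlap *Gm10143* on the opposite strand.

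The 3 subunits of RPA, which bind single-stranded DNA as a trimer, did not move together. *Rpa1*, the large subunit, was at 26.4, 22 and 31.3 TPM in the embryonic and 102, 89.1 and 52.9 TPM in the adult samples, giving a log2 fold change of 1.54 (SE 0.26, adjusted p = 0.00178). *Rpa2*, the middle subunit, was at 30.4, 25.5 and 25.1 TPM and then at 9.85, 11.6 and 9.53 TPM, a log2 fold change of -1.30 (SE 0.25, adjusted p = 0.00287). The stages were apart in both genes and in opposite order. *Rpa3*, the small subunit, was at 14.4, 18.5 and 20.2 TPM and then at 15.7, 13.3 and 20.7 TPM, with a log2 fold change of -0.10 (interval -0.73 to 0.52).

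The ratio of *Rpa1* to *Rpa2* in TPM was 0.869, 0.864 and 1.25 in the embryonic and 10.3, 7.65 and 5.55 in the adult samples. The stages did not overlap, and the exact two-sided permutation test gave p = 0.1, the smallest it can give. *Rpa1*, on chromosome 11 from 75298166 to 75348324 (GRCm38), rose under each alternative tried, with an adjusted p of 0.00069 to 0.0183.

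Both measured subunits of chromatin assembly factor 1, which places histones on new DNA, fell. *Chaf1a* was at 21.5, 24.1 and 23.4 TPM in the embryonic and 8.24, 3.29 and 11.5 TPM in the adult samples (log2 fold change -1.60, SE 0.41, adjusted p = 0.0116). *Chaf1b* was at 21.6, 20.4 and 36.2 TPM and then at 5.44, 4.47 and 11.7 TPM (log2 fold change -1.77, SE 0.40, adjusted p = 0.00679). In both genes adult sample 2 was the lowest and adult sample 3 the highest of the adult samples, and all 3 were below the embryonic range. *Ubxn6*, which overlaps 52.5% of the *Chaf1a* exons on the opposite strand, had a log2 fold change of 0.65 (adjusted p = 0.017).

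The 4 nucleotide supply genes fell, and *Rrm2* fell furthest of all 42. *Rrm2* (chromosome 12, 24708241 to 24714146, GRCm38), the small subunit of ribonucleotide reductase, which makes deoxynucleotides from ribonucleotides, was at 98.3, 80.8 and 109 TPM in the embryonic and 6.89, 10.2 and 6.40 TPM in the adult samples. The stages were far apart, with a log2 fold change of -3.47 (SE 0.24, adjusted p = 1.4e-05). *Rrm1*, the large subunit, was at 37.0, 42.4 and 53.1 TPM and then at 12.1, 6.88 and 14.5 TPM (log2 fold change -1.93, SE 0.30, adjusted p = 0.00111). The ratio of *Rrm2* to *Rrm1* was 2.65, 1.91 and 2.05 in the embryonic and 0.571, 1.49 and 0.44 in the adult samples. *Rrm2* was thus above *Rrm1* in each embryonic sample and in adult sample 2 (exact two-sided permutation test on the log2 ratio, p = 0.1, the smallest it can give).

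*Tyms*, thymidylate synthase, was at 31.3, 40.6 and 41.8 TPM in the embryonic and 14.5, 15.5 and 12.3 TPM in the adult samples. The values were close together within each stage, with a log2 fold change of -1.36 (SE 0.23, adjusted p = 0.0016). *Tk1*, the thymidine kinase of the cytosol, was at 20.8, 11 and 24.7 TPM and then at 7.73, 8.17 and 3.16 TPM (log2 fold change -1.45, SE 0.44, adjusted p = 0.0252). The adult samples were all lower, but the adjusted p of *Tk1* was 0.0926 without embryonic sample 1, 0.104 without embryonic sample 3 and 0.062 without adult sample 3 (0.0157 to 0.223 over the alternatives).

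The adult samples differed more among themselves than the embryonic samples did. The median SD of the 42 genes on the log2(TPM + 1) scale was 0.28 in the embryonic and 0.54 in the adult samples, and the adult SD was the larger one for 33 of the 42 genes (78.6%). Over all genes tested the medians were 0.27 and 0.35, and the adult SD was larger for 62.1%. The highest adult value was more than 5 times the lowest for 10 of the 42 genes, and the highest embryonic value for 1, *Gins3*. Adult samples 1, 2 and 3 held the lowest adult value of 11, 14 and 17 genes and the highest of 15, 10 and 17, so the extremes were shared among them.

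Further replication genes, listed by role with earlier results of these data known, included some of the largest decreases. Of 37 such genes, 15 fell (40.5%) and 2 rose (5.41%), with a median log2 fold change of -0.52. Over all genes tested 21.4% fell and 23.9% rose. The share called in either direction was thus close to the 45.3% of all genes tested, and the split between directions differed. *Clspn* (claspin, a fork and checkpoint protein) was at 82.4, 45.8 and 58.5 TPM in the embryonic and 3.87, 3.22 and 1.59 TPM in the adult samples (log2 fold change -4.03, adjusted p = 4.6e-05). *Top2a* (topoisomerase II alpha) had a log2 fold change of -3.92, *Timeless* (fork protection) of -2.97, *Pclaf* (a PCNA-binding factor) of -2.11 and *Dbf4* (the activator of the CDC7 kinase) of -1.46, and all fell. *Cdc7* itself was at 5.73, 6.76 and 12 TPM and then at 1.77, 5.14 and 11.8 TPM (log2 fold change -0.55, adjusted p = 0.463). The 2 that rose were *Orc3* (log2 fold change 0.86, adjusted p = 0.015) and *Chtf8* (0.83, adjusted p = 0.00136), a subunit of an alternative clamp loader. Most of the *Chtf8* exons (91.8%) overlap another protein-coding gene entry, also named *Chtf8*, on the same strand. Its increase can therefore not be assigned to the clamp loader subunit. The adjusted p of *Orc3* was 0.0596 without embryonic sample 1, 0.051 without embryonic sample 3 and 0.19 with adult sample 2 alone (0.0085 to 0.19 over the alternatives).

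Deoxynucleotide enzymes outside the 42 genes gave 2 of 16 that fell (12.5%) and 4 that rose (25%), with a median log2 fold change of -0.04. Over all genes tested 21.4% fell and 23.9% rose, so these shares were near or below the background. *Tk2* and *Dguok*, the nucleoside kinases of mitochondria, rose. *Tk2* was at 0.976, 0.867 and 1.94 TPM in the embryonic and 4.37, 3.95 and 14.4 TPM in the adult samples (log2 fold change 1.75, adjusted p = 0.0283, but 0.0828 without embryonic sample 1, 0.0866 without embryonic sample 2 and 0.0598 without adult sample 3, within 0.0229 to 0.11 over the alternatives). *Dguok* was at 3.68, 2.60 and 2.11 TPM and then at 8.15, 12.2 and 8.32 TPM (log2 fold change 1.48, adjusted p = 0.0131). Each adult sample was above each embryonic one for both kinases, the order opposite to that of *Tk1*.

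*Mthfd1*, an enzyme of folate metabolism, also rose (log2 fold change 1.57, adjusted p = 0.00072), while *Shmt1* (-1.92, adjusted p = 0.00414), which feeds thymidylate synthesis, and *Dut* (-0.76, adjusted p = 0.0417), which removes dUTP, fell. The call of *Dut* was lost with no filter, without the 20 highest genes, without the variance trend, without any 1 embryonic sample and without adult sample 2, with adjusted p from 0.00648 to 0.111 over the alternatives. With adult sample 2 alone, the adjusted p was 0.0506 for *Mthfd1* and 0.0619 for *Shmt1*, the highest for each over the alternatives (lowest 0.00052 and 0.00317). *Rrm2b*, the ribonucleotide reductase subunit used outside S phase, was at 9.05, 6.48 and 14.0 TPM in the embryonic and 18.5, 25.2 and 7.44 TPM in the adult samples. Its stages overlapped (log2 fold change 0.65, interval -0.41 to 1.71, adjusted p = 0.286), and its adult level was above that of *Rrm2* in each adult sample. *Samhd1*, which degrades deoxynucleotides, was at 24.9 to 31.9 TPM and then at 35.8 to 46.6 TPM (log2 fold change 0.50, adjusted p = 0.0695). The log2 fold change of *Dck*, which phosphorylates deoxycytidine, was -0.84 (adjusted p = 0.134) and did not pass.

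Enzymes of ribonucleotide synthesis, which serve RNA as well as DNA, gave shares close to those of all genes tested (21.4% fell and 23.9% rose). Of 16 such genes 3 fell (18.8%) and 4 rose (25%), with a median log2 fold change of 0.32. *Cad*, which starts pyrimidine synthesis, was at 31.4, 29.6 and 38.0 TPM in the embryonic and 76.4, 62.0 and 71.7 TPM in the adult samples (log2 fold change 1.07, adjusted p = 0.00153). *Umps*, which ends the same route, was at 49.2, 46.9 and 57.3 TPM and then at 18.3, 18.4 and 14.3 TPM (log2 fold change -1.54, adjusted p = 0.00047). The first and last enzymes of the pyrimidine route thus differed in direction, with no overlap between the stages in either. Of the purine enzymes, *Adsl* (0.80) and *Atic* (0.78) rose and *Gmps* (-1.06) and *Impdh2* (-0.97), which make guanine nucleotides, fell on the log2 scale. The adjusted p of *Adsl* was 0.0553 without embryonic sample 1, 0.0569 without embryonic sample 3 and 0.108 with adult sample 2 alone, and that of *Impdh2* was 0.0545 with adult sample 2 alone (0.00918 to 0.108 and 0.00091 to 0.0545 over the alternatives).

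**Figure D4:**
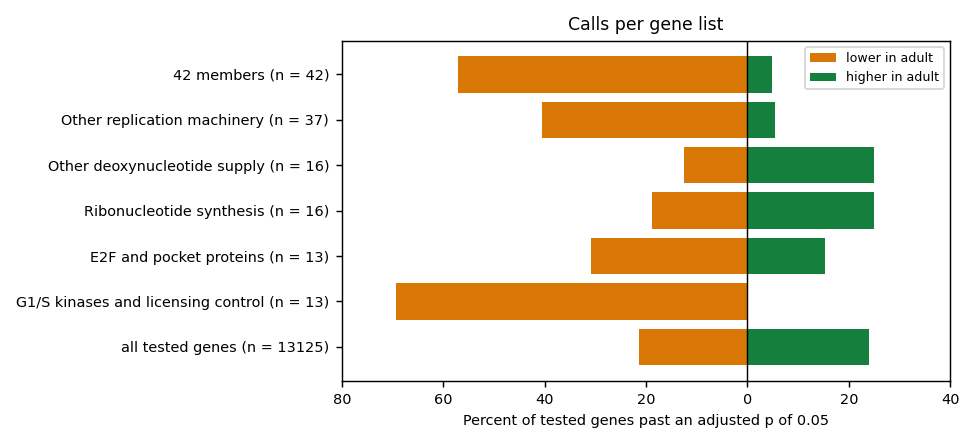
Percent of tested genes of each list that fell (orange, to the left) or rose (green, to the right) in adult samples at an adjusted p under 0.05. Of the 42 replication genes 57.1% fell and 4.76% rose, and of all 13125 genes 21.4% fell and 23.9% rose.

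Of the 13 E2F and pocket protein genes, 4 fell and 2 rose, with a median log2 fold change of -0.25. The share called was thus close to the 45.3% of all genes tested. *E2f7* and *E2f8*, repressors that are themselves induced in S phase, fell the most. *E2f7* was at 46.8, 44.0 and 68.0 TPM in the embryonic cells and listed at 0, 1.46 and 0 TPM in the adult samples (log2 fold change -5.29, adjusted p = 4e-05). *E2f8* was at 48.4, 56.9 and 54.5 TPM and then at 3.54, 0.424 and 0.139 TPM (log2 fold change -4.80, adjusted p = 0.00014). No adult sample came near the embryonic level of either repressor.

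Among the activators, *E2f2* fell (log2 fold change -2.74, adjusted p = 0.00257), whereas *E2f1* was at 40.4, 33.9 and 51.9 TPM in the embryonic and 17.9, 20.3 and 80.2 TPM in the adult samples. Adult sample 3 was above and the other two below the embryonic range of *E2f1* (log2 fold change -0.41, interval -1.54 to 0.73, adjusted p = 0.528). *Rbl2*, the pocket protein of resting cells, was at 16.1, 9.45 and 14.6 TPM and then at 32.6, 30.8 and 28.0 TPM and rose (log2 fold change 1.16, adjusted p = 0.00721). *Tfdp1*, the E2F partner, rose by less (0.40, adjusted p = 0.0379), and *E2f4* (-0.36), *Rb1* (0.18, but -0.03 after quantile normalization) and *Rbl1* (-0.25) passed in neither direction on the log2 scale. The call of *Tfdp1* was lost under median-of-ratios scaling, without the variance trend, without any 1 sample other than adult sample 2 and with adult sample 2 alone, with adjusted p from 0.0147 to 0.199 over the alternatives. *Rbl2* had an adjusted p of 0.105 with adult sample 2 alone, the highest over its alternatives (lowest 0.00503).

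Of 13 genes for G1/S kinases and the control of licensing, 9 fell (69.2%) and none rose by limma at either an adjusted or an unadjusted p under 0.05. Their median log2 fold change was -1.47. Over all genes tested 21.4% fell and 23.9% rose at the adjusted p. The count of G1/S genes that fell was 5 without embryonic sample 1, embryonic sample 3 or adult sample 2. *Ccne1* (cyclin E1) was at 111, 84.3 and 112 TPM in the embryonic and 2.20, 16.9 and 0.487 TPM in the adult samples (log2 fold change -4.54, adjusted p = 0.00148). *Dtl*, which directs CDT1 to degradation, was at 44.4, 33.6 and 46.0 TPM and then at 1.61, 1.55 and 1.27 TPM (log2 fold change -4.08, adjusted p = 2.3e-05). The adult values of *Dtl* were close together, whereas those of *Ccne1* were spread. *Ccna2* (cyclin A2, -3.77), *Ccne2* (cyclin E2, -2.40) and *Cdk4* (-0.46) also fell on the log2 scale. *Ccne2* was at an adjusted p of 0.0515 to 0.0616 without embryonic sample 1 or 3 or adult sample 1 or 2 (0.00067 to 0.0616 over the alternatives). *Cdk4* lost its call after quantile normalization, without the 20 highest genes, without the variance trend, without embryonic sample 1 or 3 or adult sample 2 or 3, and with adult sample 2 alone, with adjusted p from 0.00769 to 0.116 over the alternatives.

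**Figure D5:**
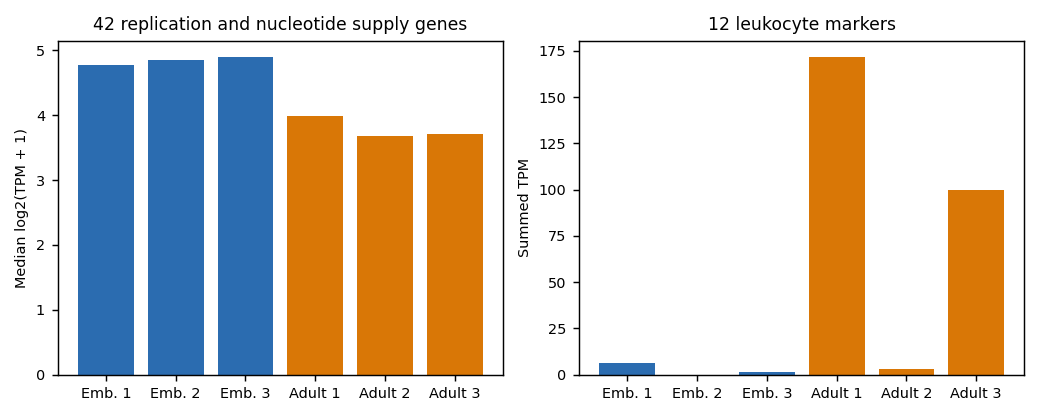
Left, the median log2(TPM + 1) of the 42 replication genes in each sample, and right, the summed TPM of 12 leukocyte markers. The replication medians of the 3 adult samples lie between 3.68 and 3.98, all below the embryonic samples, while the leukocyte sum is 3.35 TPM in adult sample 2 and 172 and 99.6 TPM in adult samples 1 and 3.

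Markers of dividing cells were lower in the same samples. Of 10 proliferation markers 9 fell (90%), against 21.4% of all genes tested, and *Top2a* is also counted among the further replication genes. The levels of the 10 markers added up to 683, 690 and 726 TPM in the embryonic and 34.3, 21.0 and 120 TPM in the adult samples. *Mki67* (the Ki-67 antigen) was at 101, 83.3 and 101 TPM and then at 2.05, 1.32 and 8.62 TPM (log2 fold change -4.55, adjusted p = 0.00014). The adult sample with the highest proliferation sum, sample 3, also held the highest adult value of 17 of the 42 replication genes and the lowest of another 17. The median log2 fold change was -3.58 over the proliferation markers and -1.33 over the 42 replication genes, and the difference between these medians was not tested.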

How the data were processed

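RNA-seq of 3 embryonic and 3 adult mouse samples was analysed. Reads were single-end. In the methods, cDNA was made with Nugen Ovation RNA-Seq System V2 and libraries with Kapa LTP, but the labels list only Kapa mRNA-Seq. The authors estimated transcript levels with RSEM on GRCm38 with RefSeq annotations and deposited log2(TPM + 1) values per Ensembl gene. The version of RSEM, any gene filter and the use of strand are not given in the sources used here. TPM keeps no depth, so precision rests on the spread between 3 samples.

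Symbols and positions came from GENCODE M21, and 21902 of 22032 identifiers had a symbol. The log2 values (pseudocount 1) of genes averaging 1 TPM or more were compared with limma 3.58.1 in R 4.3.3 (lmFit, eBayes with trend), with stage as the only term and Benjamini-Hochberg adjustment over all 13125 genes. Intervals are limma's 95% confidence intervals. A fold change on this scale understates that of low genes. EBSeq, which the methods name, needs counts and was not used. The script was tested on simulated data. Ratios were compared by exact two-sided permutation tests. Promoter sequences are RefSeq's (GRCm38.p6).

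Genes named outside the 42 were, for each further list, the 3 lowest and 3 highest past the threshold plus a set list of regulators (1 gene of that list is not reported here), and marker genes and overlapping or copied genes were named for the result they touch. The 42 genes, lists and tests were chosen with earlier results of these data known. The alternatives changed 1 choice each: the pseudocount (0.1), the filter (none, or 5 TPM), the scaling (quantile, median of ratios, or leaving out the 20 highest genes), the moderation (no trend, or robust), the threshold (0.01), a block for replicate number, and the samples (leaving out each in turn). The comparison with adult sample 2 alone was added after seeing the data. Versions of the other software were Python 3.11.15, numpy 2.4.6, pandas 2.3.3 and, for figures, matplotlib 3.10.9.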

Additional observations from a re-analysis of the deposited data

How the results depend on the processing

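The count of 24 replication genes that fell was 20 to 26 when each sample was left out and 18 to 28 over all settings, and the median log2 fold change of the 42 genes stayed between -1.47 and -1.24. Of the 26 genes called, 20 kept call and direction under each of the 16 alternatives other than adult sample 2 alone, and *Pola1*, *Prim1*, *Pole*, *Tk1*, *Gins3* and *Chaf1a* did not. Scaling moved the median of all genes from 0.16 to 0.03 with median-of-ratios scaling and to 0.25 once the 20 highest genes were left out, and the count of replication genes that fell to 27 and 23. At an adjusted p under 0.01, calls went from 17 to 10 for further replication genes, from 6 to 3 for further deoxynucleotide enzymes, from 9 to 5 for G1/S genes and from 5949 to 3718 over all genes. With adult sample 2 alone, they were 11, 3 and 7, and the number of all genes called was 3701. Leaving out each sample gave 5 to 8 G1/S calls, with 5 without embryonic sample 1, embryonic sample 3 or adult sample 2.

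Signs turned only for genes and a ratio that passed in neither direction. On the log2 scale, *Gins4* was -0.074 after quantile normalization, -0.03 under median of ratios and -0.68 with adult sample 2 alone, *Mcm8* was -0.094 and -0.067 under the same scalings, and *Rb1* was -0.028 after quantile normalization. *Pold1* was 0.061 without the 20 highest genes and 0.00 with adult sample 2 alone, where *Gins1* was 0.001. Leaving out each sample gave -0.27 to 0.50 for *Gins4*, -1.47 to 0.18 for *Gmnn*, -0.18 to 0.36 for *Mcm8*, -0.46 to 0.41 for *Pold1*, -0.263 to 0.037 for *Rpa3*, -1.09 to 0.012 for *Cdc7* and -1.896 to 0.242 for the log2 ratio Cdt1/Gmnn. The causes were not tested.

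The labels do not say that replicate numbers pair the samples. Deviations of same-numbered samples correlated at -0.0088, -0.0169 and -0.0223 across genes, and pairing that acts on only some genes was not tested. With the replicate number as a block, 28 replication genes fell and 2 rose, and *Orc1*, *Cdc45*, *Gins1* and *Rfc4* were added. The paper lists read totals in its supplementary data, which were not used here, so no limit from counting was set.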
